A study of Mus musculus with 9 samples.

Results

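Wnt ligands and genes of their pathway were compared across 3 layers captured from bladders of newborn mice. The layers were the muscular detrusor, the stroma under the epithelium, and the urothelium that lines the lumen. The 10 genes, out of 18193 with probe sets of a single symbol on the array, were taken by their symbols in the platform annotation, namely the ligands Wnt2, Wnt4, Wnt5a, Wnt7b and Wnt11, the receptor Fzd6, the nuclear factor Lef1, the feedback gene Axin2 and the secreted inhibitors Sfrp1 and Sfrp2. They have 23 of the 45101 probe sets, and 17 of the 23 passed a filter on dim signal, with at least 1 per gene. The animals were FVB/N mice of postnatal day 1 or 2 that carried the SMGA/EGFP transgene, SMGA being Actg2, the smooth muscle gamma actin gene. All 9 arrays share it, and the labels do not say which cells it marks. Each layer has 3 arrays. Detrusor 1 and 2, stroma 1 and urothelium 2 came from day 1, and detrusor 3, stroma 2 and 3 and urothelium 1 and 3 from day 2. Each layer was cut from frozen sections with a laser and amplified before hybridisation, 1 unpooled sample per array. The labels do not tie samples to animals, so p-values rest on the spread among captured samples only. That spread may be technical, and p-values would be too small if captures came from the same animal.

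Wnt proteins are secreted lipid-modified ligands that bind Frizzled receptors. In the canonical branch this stabilises beta-catenin, which joins the TCF/LEF factors on DNA and switches on targets such as Axin2, itself a brake on the pathway. Other branches act on cell polarity and calcium, with Wnt5a and Wnt11 as their best known ligands. In the bladder, as in other hollow organs, the epithelium and the mesenchyme beneath it exchange Wnt and Hedgehog signals during growth and repair.

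Levels are given as log2(intensity + 39.31), where a signal of 0 would read 5.3. The files hold no detection calls, so a low level cannot be called absent, and brightness cannot be ranked between probe sets. Marker lists were read beside the labels. The summed intensity of 10 urothelial markers was 6334 to 10329 in detrusor, 24246 to 327974 in stroma and 311198 to 412199 in urothelium. Stroma 3 had 327974, stroma 1 had 122779 and stroma 2 had 24246, so stroma 3 lay within the urothelial range. The 10 smooth muscle markers summed to 418715 to 647880 in detrusor, 91986 to 231035 in stroma and 38983 to 428675 in urothelium, where the highest value was that of urothelium 3. The summed intensity of 8 fibroblast markers was highest in stroma, at 415949 to 623415, against 287396 to 360515 in detrusor and 135557 to 264575 in urothelium. Not every marker followed the sum. Lum read log2 14.67, 14.44 and 15.38 in detrusor and 15.29, 13.92 and 14.25 in stroma. Skeletal muscle markers, 4 genes, summed to 101478 to 105987 in detrusor, 893 to 9277 in stroma and 89 to 31538 in urothelium. No marker was at 0 on any array. Calls of the 10 genes that were lost without stroma 3 and urothelium 3 together are given with that value. In captured tissue, fewer cells of a type and less RNA per cell cannot be told apart.

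**Figure D1:**
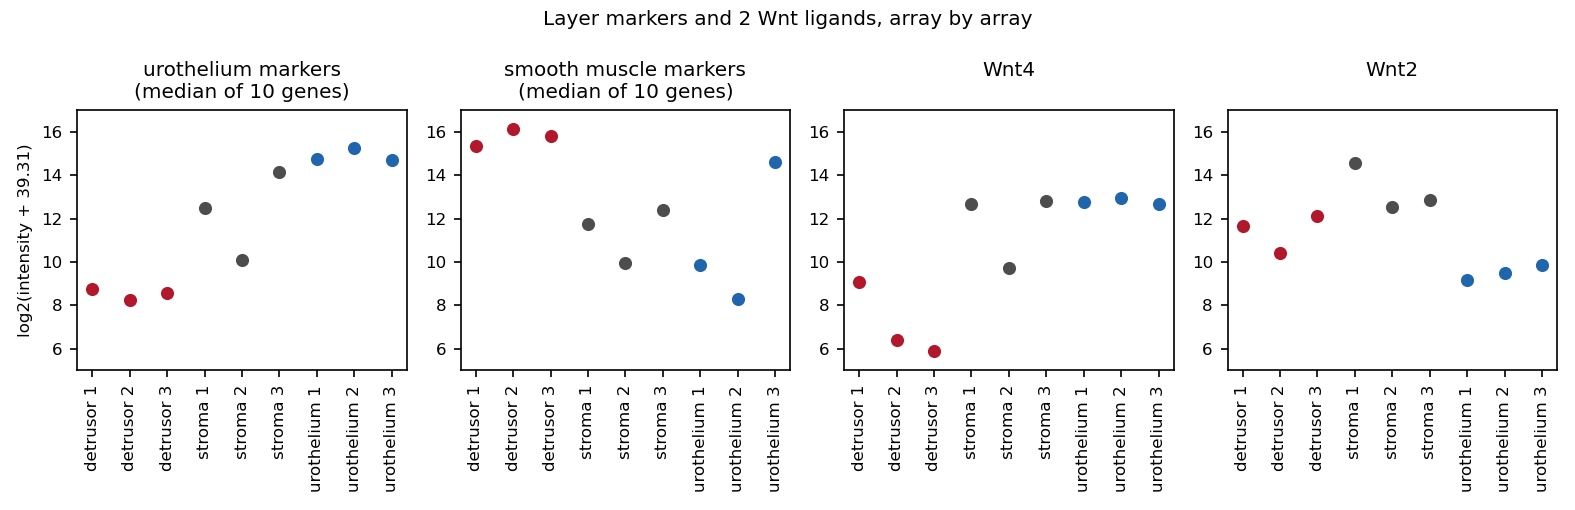
Median log2 level of 10 urothelial and 10 smooth muscle markers, and the log2 levels of Wnt4 and Wnt2, on each of the 9 arrays (one point per array, coloured by layer). Within stroma, the median of the urothelial markers runs from 10.10 in stroma 2 to 14.16 in stroma 3. Wnt4 is lower in stroma 2 (9.70) than in stroma 1 and 3 (12.69 and 12.83), whereas Wnt2 is lowest in the 3 urothelium arrays.

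Promoter sequence from RefSeq (build GRCm38.p6) was at hand for 6 of the 10 genes, in 10 windows of 300 bases that run from 250 bases before a start site to 50 after it. The windows are from the C57BL/6J reference, not from FVB/N. The TCF/LEF motif, searched as CTTTGAA or CTTTGAT on both strands, was in 1 of the 10 windows, that of Wnt11, against 8.65% of all 32851 windows in the table. The median GC content was 66.7% in the 10 windows and 52.7% in all. The 250 bases before the first listed start are printed for Wnt2, the ligand that was lowest in urothelium, for Lef1, the gene that set detrusor apart under every setting tried, for Wnt11, which holds the motif, and for the canonical target Axin2. Capitals mark the motif, which in Wnt11 reads ATCAAAG and so lies on the opposite strand.
Wnt2, chr6:18030446-18030695, minus strand: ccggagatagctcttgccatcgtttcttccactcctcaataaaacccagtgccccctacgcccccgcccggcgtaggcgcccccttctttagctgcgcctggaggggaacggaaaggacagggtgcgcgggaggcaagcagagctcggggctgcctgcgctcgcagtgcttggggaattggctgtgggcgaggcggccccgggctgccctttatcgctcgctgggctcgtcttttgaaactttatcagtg
Lef1, chr3:131110047-131110296, plus strand: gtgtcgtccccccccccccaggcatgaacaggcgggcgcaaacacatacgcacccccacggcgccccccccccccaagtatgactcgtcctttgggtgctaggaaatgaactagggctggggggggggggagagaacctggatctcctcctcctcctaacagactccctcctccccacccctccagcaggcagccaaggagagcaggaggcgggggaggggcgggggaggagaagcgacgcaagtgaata
Wnt11, chr7:98834862-98835111, plus strand: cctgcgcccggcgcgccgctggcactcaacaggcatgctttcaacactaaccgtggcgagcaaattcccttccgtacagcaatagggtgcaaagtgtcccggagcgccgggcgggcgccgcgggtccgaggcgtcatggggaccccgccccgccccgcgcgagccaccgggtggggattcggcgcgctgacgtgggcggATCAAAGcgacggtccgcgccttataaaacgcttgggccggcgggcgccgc
Axin2, chr11:108920099-108920348, plus strand: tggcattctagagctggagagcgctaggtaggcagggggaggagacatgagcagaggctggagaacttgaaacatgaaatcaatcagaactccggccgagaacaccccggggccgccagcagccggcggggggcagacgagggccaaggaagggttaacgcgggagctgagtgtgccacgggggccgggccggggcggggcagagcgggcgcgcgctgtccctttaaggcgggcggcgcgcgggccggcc
A match is a description of the letters only. The window of Axin2 held no match in these bases.

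Of the ligands, Wnt2 was highest in stroma and lowest in urothelium. Its log2 levels were 14.59, 12.54 and 12.85 in stroma, 11.64, 10.41 and 12.10 in detrusor and 9.16, 9.49 and 9.87 in urothelium. No array of one layer overlapped with those of another, and the order was stroma, detrusor, urothelium. Fibroblast marker sums had the same order, at 415949 to 623415, 287396 to 360515 and 135557 to 264575. Their part in the Wnt2 differences was not tested. Wnt2 is a canonical ligand known as a mesenchymal signal in the developing lung. It was 14.2-fold lower in urothelium than in stroma (log2 -3.82 ± 0.58, SE, limma adjusted p = 0.0409, n = 3 per layer) and 3.68-fold lower in urothelium than in detrusor (-1.88 ± 0.58, adjusted p = 0.0476). Between detrusor and stroma the difference of -1.94 ± 0.58 did not pass (adjusted p = 0.0756, 95% interval -3.21 to -0.68). The difference between urothelium and stroma was -4.24 (adjusted p = 0.0220) without stroma 3 and urothelium 3, and it kept its sign in 21 of 21 alternatives with adjusted p from 0.0127 to 0.152. Its call was lost without detrusor 1 (adjusted p = 0.0900), detrusor 3 (0.0660), urothelium 1 (0.0985), urothelium 2 (0.152) or stroma 1 (0.102). Between urothelium and detrusor the sign was kept in 21 of 21 alternatives and the call in 8. That call was lost without detrusor 1 (adjusted p = 0.134), detrusor 3 (0.182), urothelium 1 (0.137), urothelium 2 (0.112), urothelium 3 (0.0664) or stroma 3 (0.0543), and without stroma 3 and urothelium 3 together (-2.06, adjusted p = 0.0748). Without stroma 2 the difference between detrusor and stroma did pass (-2.34, adjusted p = 0.0497).

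Wnt4 had another order, with the urothelium high and the detrusor low. Its log2 levels were 12.75, 12.96 and 12.69 in urothelium, 12.69, 9.70 and 12.83 in stroma and 9.08, 6.40 and 5.89 in detrusor. Detrusor lay below every array of both other layers, and 2 of the 3 stroma arrays reached the urothelial level. Wnt4 is a ligand best known from the kidney, where it drives mesenchyme into epithelium. It was 51.2-fold higher in urothelium than in detrusor (log2 5.68 ± 0.91, adjusted p = 0.0026) and 24.6-fold lower in detrusor than in stroma (-4.62 ± 0.91, adjusted p = 0.0189). Detrusor 2 and 3 lie near the bottom of the scale and detrusor 1 does not. The size depended on the pseudocount, and the difference between urothelium and detrusor was 6.28 with a smaller and 4.30 with a larger one. Between urothelium and stroma it did not pass (1.06 ± 0.91, adjusted p = 0.574, 95% interval -0.95 to 3.07). A second Wnt4 probe set, 1441687_at, read 11.10, 10.44 and 10.68 in urothelium, 9.45, 9.05 and 11.92 in stroma and 8.50, 6.32 and 7.36 in detrusor. That probe set also had detrusor below all other arrays, with a difference of 3.35 ± 0.75 between urothelium and detrusor (adjusted p = 0.0151 over 22207 probe sets) and -2.75 ± 0.75 between detrusor and stroma (adjusted p = 0.0726). The stroma arrays with high Wnt4 are those with high urothelial markers, and the part of these markers in the difference from stroma was not tested. In stroma 2, which had the lowest urothelial marker sum of the layer, Wnt4 stood at 9.70. The call between detrusor and stroma was lost without detrusor 2 (-4.26, adjusted p = 0.0757), detrusor 3 (-4.00, adjusted p = 0.0920) or stroma 3 (-4.08, adjusted p = 0.0595), and without stroma 3 and urothelium 3 together (-4.08, adjusted p = 0.0726). The call between urothelium and detrusor held in 21 of 21 alternatives (adjusted p from 0.000444 to 0.015).

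Wnt7b, an epithelial ligand known to signal to neighbouring mesenchyme, followed the same order with smaller steps. Its log2 levels were 10.90, 11.75 and 10.60 in urothelium, 10.24, 10.10 and 11.07 in stroma and 8.996, 8.41 and 8.90 in detrusor. Again the 3 detrusor arrays were lowest, and stroma overlapped with urothelium. The gene was 4.97-fold higher in urothelium than in detrusor (log2 2.31 ± 0.43, adjusted p = 0.00478), a call that held in 21 of 21 alternatives. It was 3.26-fold lower in detrusor than in stroma (-1.70 ± 0.43, adjusted p = 0.0424), a call that held in 8 of 21, and the difference between urothelium and stroma did not pass (0.61 ± 0.43, adjusted p = 0.478, 95% interval -0.33 to 1.55). Between detrusor and stroma, adjusted p was 0.164 with median centring, 0.0822 without detrusor 1, 0.133 without detrusor 2, 0.129 without detrusor 3, 0.0683 without urothelium 1, 0.0630 without stroma 1 and 0.117 without stroma 3. Without stroma 3 and urothelium 3 the value was -1.41 (adjusted p = 0.129). The other Wnt7b probe set, 1420891_at, did not pass the filter. It ranged from 5.72 to 8.10 over the 9 arrays, and its layers overlapped.

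Wnt5a and Wnt11, the ligands tied to the non-canonical branches, were not called in any of the 3 comparisons. Wnt5a had log2 levels of 12.07, 11.49 and 12.06 in urothelium, 9.60, 12.37 and 11.32 in stroma and 10.57, 10.51 and 9.40 in detrusor. Urothelium lay above detrusor on all 3 arrays, and stroma spanned both. The difference between urothelium and detrusor was 1.72 ± 0.62 (adjusted p = 0.0872, 95% interval 0.35 to 3.08). It passed when only these layers were fitted (adjusted p = 0.0157), with array weights (1.94, adjusted p = 0.00760), without stroma 1 (0.0218) and without stroma 2 (0.0389). Its other 2 probe sets that passed the filter gave 2.11 ± 1.00 (1448818_at, adjusted p = 0.217) and 1.73 ± 1.09 (1437673_at, adjusted p = 0.362) for the same comparison, and on both stroma 1 was lower than the other stroma arrays, at 5.60 and 5.86. Probe set 1456976_at did not pass the filter and ranged from 6.63 to 8.31. Wnt11 read 9.34, 8.08 and 8.83 in detrusor, 8.95, 9.93 and 10.48 in stroma and 8.75, 8.67 and 9.13 in urothelium. All 3 layers overlapped. Its differences were -1.03 ± 0.50 for detrusor against stroma (adjusted p = 0.248), -0.93 ± 0.50 for urothelium against stroma (adjusted p = 0.349) and 0.10 ± 0.50 for urothelium against detrusor (adjusted p = 0.927, 95% interval -1.004 to 1.21).

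**Figure D2:**
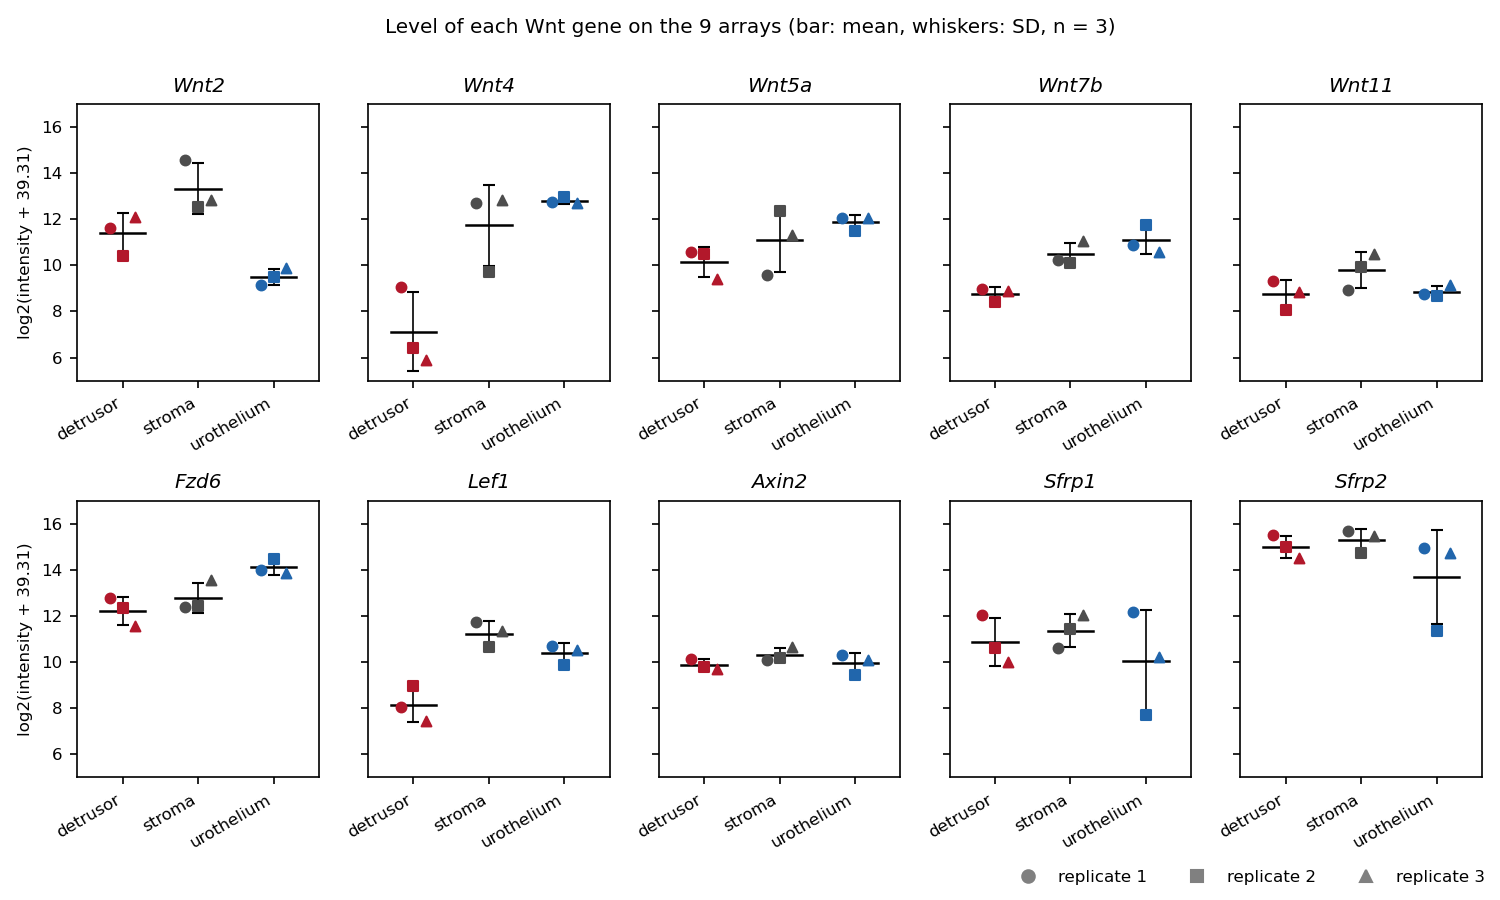
Log2(intensity + 39.31) of the 10 genes in detrusor, stroma and urothelium. Points are single arrays (circle, square and triangle for replicates 1, 2 and 3), bars the mean and whiskers the SD of 3 arrays. Wnt2 falls from stroma to detrusor to urothelium, Wnt4, Wnt7b and Lef1 are lowest in the 3 detrusor arrays, and urothelium 2 lies far below the other urothelium arrays for Sfrp1 and Sfrp2.

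Fzd6 was the receptor examined. It belongs to the Frizzled family and is known for its part in planar cell polarity and hair patterning. Its log2 levels were 13.98, 14.48 and 13.87 in urothelium, 12.40, 12.44 and 13.55 in stroma and 12.79, 12.33 and 11.58 in detrusor. Every urothelium array was above every array of the other layers, whereas stroma and detrusor overlapped. Fzd6 was 3.67-fold higher in urothelium than in detrusor (log2 1.88 ± 0.40, adjusted p = 0.00957), and this call held in 21 of 21 alternatives (adjusted p from 0.0023 to 0.0462). Against stroma the difference of 1.31 ± 0.40 did not pass (adjusted p = 0.114, 95% interval 0.43 to 2.20). It passed without stroma 3 (1.69, adjusted p = 0.0414), the stroma array with the most urothelial marker signal and the highest Fzd6 of its layer. Detrusor and stroma differed by -0.56 ± 0.40 (adjusted p = 0.438). Of the other 2 Fzd6 probe sets, 1458904_at gave 1.30 ± 0.76 between urothelium and detrusor (adjusted p = 0.323). The dimmer 1448662_at, which did not pass the filter, read 7.89, 8.68 and 7.39 in urothelium against 7.15, 5.59 and 5.59 in detrusor and 6.06, 5.89 and 7.06 in stroma, also with every urothelium array on top.

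Among the nuclear and feedback genes, Lef1 separated the detrusor from both other layers and Axin2 did not. Lef1 encodes one of the DNA-binding partners of beta-catenin and is itself a target of the pathway in many tissues. Its log2 levels were 8.05, 8.96 and 7.47 in detrusor, 11.72, 10.66 and 11.33 in stroma and 10.70, 9.89 and 10.54 in urothelium. All detrusor arrays lay below all others, and stroma 2, at 10.66, was just below urothelium 1. Lef1 was 8.46-fold lower in detrusor than in stroma (log2 -3.08 ± 0.48, adjusted p = 0.00797) and 4.66-fold higher in urothelium than in detrusor (2.22 ± 0.48, adjusted p = 0.00959). Both calls held in 21 of 21 alternatives, and without stroma 3 and urothelium 3 the values were -3.03 (adjusted p = 0.0282) and 2.14 (adjusted p = 0.0415). The difference between urothelium and stroma did not pass (-0.86 ± 0.48, adjusted p = 0.363, 95% interval -1.91 to 0.19). The second probe set, 1421299_a_at, did not pass the filter and ranged from 5.37 to 6.71, near the bottom of the scale.

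Axin2 encodes a scaffold of the complex that degrades beta-catenin and is widely used as a readout of canonical signalling. It had log2 levels of 10.15, 9.81 and 9.72 in detrusor, 10.09, 10.17 and 10.63 in stroma and 10.29, 9.45 and 10.09 in urothelium. The layers overlapped in every comparison. The differences were -0.40 ± 0.37 (detrusor against stroma, adjusted p = 0.547, 95% interval -1.22 to 0.41), -0.35 ± 0.37 (urothelium against stroma, adjusted p = 0.650, interval -1.17 to 0.46) and 0.05 ± 0.37 (urothelium against detrusor, adjusted p = 0.953, interval -0.76 to 0.86). With arrays centred on their medians the first and second turned sign, to 0.01 and 0.07. The other probe set, 1421341_at, did not pass the filter and ranged from 5.44 to 7.32.

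The secreted inhibitors Sfrp1 and Sfrp2, which carry a Frizzled-like domain and bind Wnt ligands outside the cell, were not called in any comparison. Sfrp2 had log2 levels of 15.50, 14.98 and 14.53 in detrusor, 15.70, 14.74 and 15.45 in stroma and 14.97, 11.34 and 14.74 in urothelium. The other 8 of the 9 arrays lay between 14.53 and 15.70, and urothelium 2 stood apart at 11.34. The differences were -0.29 ± 0.78 for detrusor against stroma (adjusted p = 0.853), -1.61 ± 0.78 for urothelium against stroma (adjusted p = 0.293) and -1.32 ± 0.78 for urothelium against detrusor (adjusted p = 0.295). Without urothelium 2 the differences of urothelium from stroma and detrusor were -0.44 and -0.15. Sfrp1 read 12.04, 10.60 and 9.997 in detrusor, 10.63, 11.42 and 12.05 in stroma and 12.16, 7.72 and 10.22 in urothelium. Here too urothelium 2 was the lowest array, while urothelium 1 was the highest of all 9. Sfrp1 differed by -0.49 ± 0.94 between detrusor and stroma (adjusted p = 0.791), by -1.34 ± 0.94 between urothelium and stroma (adjusted p = 0.481) and by -0.84 ± 0.94 between urothelium and detrusor (adjusted p = 0.613). Without urothelium 2 the last difference was 0.31 and that between urothelium and stroma was -0.18. Of the other Sfrp1 probe sets, 3 passed the filter, and urothelium 2 was the lowest of the 9 arrays on each, at 8.56 (1428136_at), 7.47 (1438620_x_at) and 5.44 (1416594_at). The fifth, 1460187_at, did not pass and ranged from 5.34 to 7.03, with urothelium 2 lowest. The part of marker signal in the low urothelium 2 values was not tested. That array had the lowest median intensity of the 9, at 133.3 against 191.7 to 388.5 on the others, and the lowest fibroblast marker sum, at 135557, and urothelium 1 and 3 had 150179 and 264575.

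Counted over the 10 genes, detrusor was lower than stroma for 3 (Wnt4, Wnt7b and Lef1) and higher for none, against 5.84% of the 13064 genes tested that were called in this comparison (3.12% higher and 2.72% lower). By limma, 4 of the 10 had an unadjusted p under 0.05 in this comparison, beside 2986 of the 13064 genes. Urothelium was lower than stroma for 1 (Wnt2), against 0.23% of all genes (0.0612% higher and 0.168% lower). Between urothelium and detrusor 5 were called, 4 higher in urothelium (Wnt4, Wnt7b, Fzd6 and Lef1) and 1 lower (Wnt2), against 16.4% of all genes (8.37% higher and 8.05% lower). Detrusor lay wholly below stroma for 4 genes, beside 27.1% of all genes without overlap (11.8% higher and 15.3% lower). Urothelium lay wholly above stroma for Fzd6 and below it for Wnt2, beside 23.1% of all genes (9.77% higher and 13.3% lower). Against detrusor, urothelium lay wholly above for 5 genes and below for 1, beside 39.3% of all genes (19.3% higher and 20% lower). The median difference of the 10 genes was -0.99, -0.61 and 0.91 in these comparisons, and that of all genes was -0.16, -0.12 and -0.01. Of the 10, 1 was called for detrusor against stroma without detrusor 2, detrusor 3 or stroma 3, beside 190, 105 and 403 of the 13064 genes. For urothelium against stroma, limma called 0 without detrusor 1, detrusor 3, urothelium 1, urothelium 2 or stroma 1. In the same order, 0, 2, 1, 0 and 0 of the 13064 genes were called. Limma called 2 of the 10 without stroma 3, beside 528 of the 13064 genes. Over all arrays, 2 of the 10 had an unadjusted p under 0.05 there by limma, beside 2481 of the 13064 genes. The 3 comparisons share arrays, so these counts are not independent of each other. Without stroma 3 and urothelium 3, the counts were 1 lower (Lef1) for detrusor against stroma, 1 lower (Wnt2) for urothelium against stroma and 4 higher for urothelium against detrusor, while 3.28%, 3.37% and 14.4% of all genes were called.

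**Figure D3:**
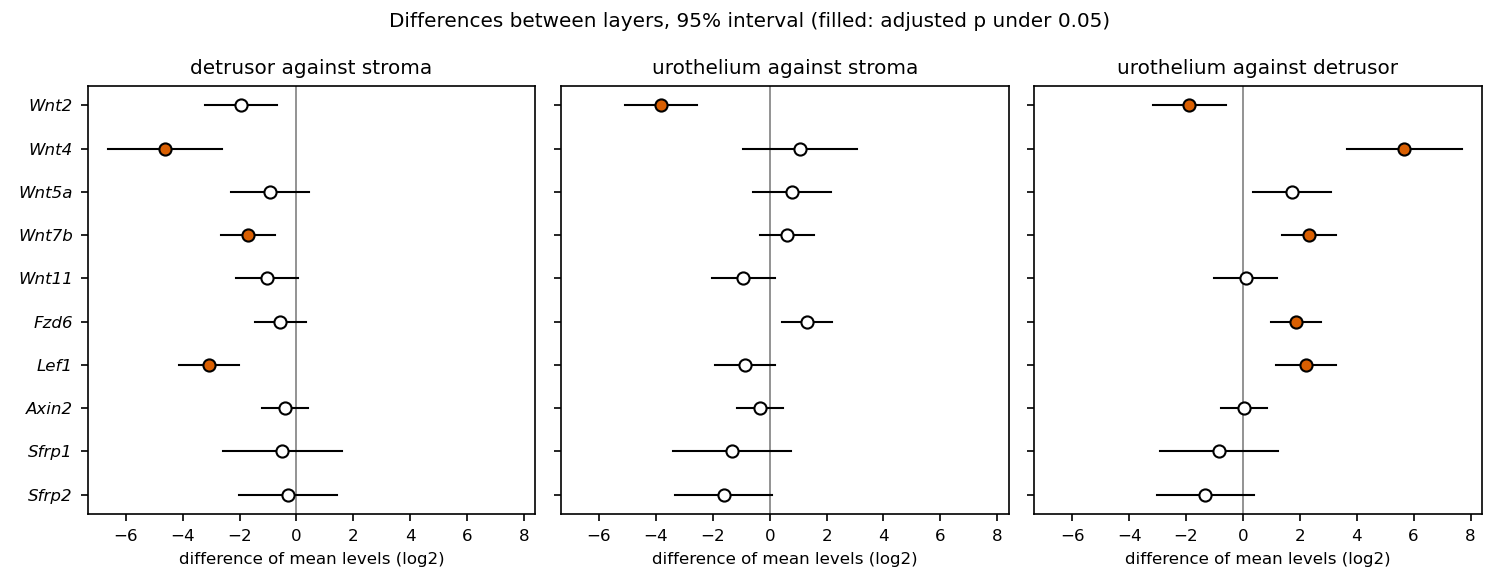
Difference of mean log2 levels between layers for the 10 genes in the 3 comparisons, with 95% intervals from the limma fit. Filled points had an adjusted p under 0.05. They are Wnt4, Wnt7b and Lef1 for detrusor against stroma, Wnt2 for urothelium against stroma, and Wnt2, Wnt4, Wnt7b, Fzd6 and Lef1 for urothelium against detrusor.

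The rest of the pathway was read from 9 lists of 96 genes by role, of which 76 were tested. Between detrusor and stroma 3 of the 76 were called, 2 higher and 1 lower, beside 5.84% of all genes. That count was 1 without detrusor 3, 5 without urothelium 3, 6 without urothelium 2 and 7 without stroma 2 (2 higher and 5 lower), and 7 with day as a covariate. In the same order, 105, 732, 801, 851 and 702 of the 13064 genes tested were called. Between urothelium and detrusor 13 were called, 4 higher and 9 lower in urothelium, beside 16.4% of all genes. Without detrusor 3 there were 7 (1 higher and 6 lower), beside 1172 of the 13064 genes. With array weights there were 22 (11 higher and 11 lower), beside 3785. Limma called 0 of the 76 between urothelium and stroma, beside 0.23% of all genes. By limma, 13 of the 76 had an unadjusted p under 0.05 there, beside 2481 of the 13064 genes tested. The count of called genes there was 4 without stroma 3, the array with the most urothelial marker signal of its layer, beside 528 of the 13064 genes. They were Daam1 (1.61, adjusted p = 0.0280), Fzd2 (-1.35, adjusted p = 0.0256), Prickle1 (-2.07, adjusted p = 0.0346) and Wnt9a (-2.25, adjusted p = 0.0210). Without stroma 3 and urothelium 3 together the count was also 4, beside 3.37% of all genes. These were Daam1 (1.82, adjusted p = 0.0269), Dkk3 (-1.50, adjusted p = 0.0372), Fzd2 (-1.41, adjusted p = 0.0441) and Wnt9a (-2.41, adjusted p = 0.0310). Without urothelium 3 alone, Daam1 and Dkk3 were called, beside 102 of the 13064 genes, and with the larger pseudocount 3 of the 76 were, beside 303. The genes named for urothelium against stroma were named after their values were seen. The median differences of the 76 were -0.23, -0.03 and -0.29 for detrusor against stroma, urothelium against detrusor and urothelium against stroma.

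Porcn, the enzyme that attaches the lipid Wnt proteins need for release, was highest in detrusor. Its log2 levels were 11.53, 10.71 and 11.25 in detrusor, 8.48, 7.60 and 8.54 in stroma and 8.23, 8.37 and 8.38 in urothelium. All detrusor arrays were above all others. Porcn was 7.78-fold higher in detrusor than in stroma (log2 2.96 ± 0.42, adjusted p = 0.00540) and 7.15-fold lower in urothelium than in detrusor (-2.84 ± 0.42, adjusted p = 0.00185), with both calls kept in 21 of 21 alternatives. Skeletal muscle marker sums were also highest on the 3 detrusor arrays, as were smooth muscle sums except that urothelium 3 exceeded detrusor 1. Their part in this difference, and in those of Wnt9a, Lgr6, Nkd2 and Prickle2 below, was not tested. Wls, which carries Wnt proteins to the surface, differed by 0.61 ± 0.38 (adjusted p = 0.371) and 0.03 ± 0.38 (adjusted p = 0.968) in the same comparisons.

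Of 6 further ligands tested, Wnt9a was higher in detrusor than in urothelium, and Wnt10a was higher in urothelium than in detrusor. Wnt9a read 11.10, 11.31 and 11.89 in detrusor, 10.60, 10.29 and 9.92 in stroma, and 7.89, 8.19 and 8.53 in urothelium, with no overlap between layers. It was 9.38-fold lower in urothelium than in detrusor (log2 -3.23 ± 0.38, adjusted p = 0.000730), a call kept in 21 of 21 alternatives. Against stroma the difference was -2.07 ± 0.38 (adjusted p = 0.0543), and it passed in 4 of 21 alternatives. Between detrusor and stroma the difference of 1.16 ± 0.38 did not pass (adjusted p = 0.101). Wnt10a was 6.21-fold higher in urothelium than in detrusor (2.63 ± 0.61, adjusted p = 0.0141), and lost this call without detrusor 3 (2.15, adjusted p = 0.0651) or urothelium 2 (2.28, adjusted p = 0.0625). It read 9.87, 11.06 and 10.10 in urothelium and 10.02, 8.60 and 10.29 in stroma, so these layers overlapped. Their difference did not pass (0.71 ± 0.61, adjusted p = 0.577), nor did that between detrusor and stroma (-1.93 ± 0.61, adjusted p = 0.0927).

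Of 16 further receptors and co-receptors tested, 4 were lower in urothelium than in detrusor, beside 8.05% of all genes. Lgr6, a receptor for the R-spondins that raise Wnt sensitivity, read 11.32, 11.86 and 12.11 in detrusor, 7.52, 9.29 and 8.37 in stroma and 6.69, 6.27 and 8.39 in urothelium. Detrusor stood above all other arrays, and urothelium 3, the array with muscle markers, was the highest of its layer. Lgr6 was 25.0-fold lower in urothelium than in detrusor (log2 -4.65 ± 0.63, adjusted p = 0.00135), and 10.3-fold higher in detrusor than in stroma (3.37 ± 0.63, adjusted p = 0.0158). The latter call was lost without detrusor 2 (3.32, adjusted p = 0.0650) or detrusor 3 (3.20, adjusted p = 0.0840). Fzd2 (-1.62 ± 0.31, adjusted p = 0.00551) and the Wnt5a receptors Ror1 (-3.20 ± 0.91, adjusted p = 0.0346) and Ror2 (-1.51 ± 0.42, adjusted p = 0.0315) were lower in urothelium as well. Ror1 was -1.79 without urothelium 2, where it stood at 7.75 against 11.85 and 12.07 in the other urothelium arrays, and lost its call without detrusor 1 (adjusted p = 0.0708), detrusor 2 (0.0959) or detrusor 3 (0.113). Ror2 lost it without detrusor 1 (0.121), detrusor 2 (0.0558), detrusor 3 (0.0799), urothelium 1 (0.0638) or urothelium 2 (0.112). Among the uncalled receptors, Fzd7 gave -0.32 ± 0.26 for detrusor against stroma (adjusted p = 0.497) and 0.20 ± 0.26 for urothelium against detrusor (adjusted p = 0.677).

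Feedback and target genes differed in both directions between urothelium and detrusor, with 2 higher and 2 lower of 8, beside 8.37% and 8.05% of all genes. Nkd2, a membrane-linked inhibitor of Dishevelled, read 12.60, 11.77 and 12.93 in detrusor, 10.53, 9.69 and 10.36 in stroma and 9.30, 7.21 and 9.92 in urothelium. Detrusor did not overlap with the others. The difference of detrusor from stroma, 2.24 ± 0.63, did not pass (adjusted p = 0.0660), and it passed in 8 of 21 alternatives. Nkd2 was 12.3-fold lower in urothelium than in detrusor (log2 -3.62 ± 0.63, adjusted p = 0.00373, kept in 21 of 21 alternatives). Its relative Nkd1 was lower too (-2.10 ± 0.62, adjusted p = 0.0423). That call was lost without detrusor 1 (adjusted p = 0.134), detrusor 2 (0.0646), detrusor 3 (0.125), urothelium 1 (0.0896), urothelium 2 (-1.40, 0.130) or stroma 3 (0.0503). The homeobox gene Msx2, also a BMP target, read 11.56, 11.48 and 10.89 in urothelium, 10.09, 8.09 and 10.48 in stroma and 7.61, 7.67 and 5.97 in detrusor. It was 18.8-fold higher in urothelium than in detrusor (4.23 ± 0.67, adjusted p = 0.00250, kept in 20 of 20 alternatives). The stricter filter on dim signal dropped Msx2, so that alternative has no value for it. Sp5, a zinc finger target of beta-catenin, was higher by 2.54 ± 0.61 (adjusted p = 0.0165), from detrusor levels of 5.54 to 6.24 near the bottom of the scale. The difference was 1.13 with the larger pseudocount, and its call was lost without detrusor 3 (adjusted p = 0.0696), urothelium 1 (0.0532) or urothelium 3 (0.0577). Sp5 reached the array median only on the urothelium arrays. It thus passed the filter on dim signal only through the layer where it was high, and the stricter filter dropped it. Sp5 is among the 2 genes counted as higher above, so that count leans on the filter.

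The remaining lists held 2 called genes. Of all genes, 5.84% were called for detrusor against stroma, 0.23% for urothelium against stroma and 16.4% for urothelium against detrusor. Apcdd1, a membrane inhibitor that binds Wnt and LRP proteins, read 10.28, 8.63 and 9.81 in detrusor, 11.97, 11.94 and 11.71 in stroma and 10.79, 11.61 and 11.23 in urothelium. Detrusor was again lowest on every array. Apcdd1 was 4.92-fold lower in detrusor than in stroma (log2 -2.30 ± 0.44, adjusted p = 0.0168) and 3.11-fold higher in urothelium than in detrusor (1.64 ± 0.44, adjusted p = 0.0271). The first call was lost without detrusor 3 (adjusted p = 0.0622) and without stroma 3 and urothelium 3 together (0.0503), and with median centring (-1.88, adjusted p = 0.0700). The second was lost without detrusor 2 (0.0756), detrusor 3 (0.0639), urothelium 2 (0.0964) or urothelium 3 (0.0657), without stroma 3 and urothelium 3 together (0.0797), and with median centring (0.0714). Prickle2, a planar polarity gene, was 8.74-fold lower in urothelium than in detrusor (-3.13 ± 0.62, adjusted p = 0.00687, kept in 21 of 21 alternatives). None of the 13 relay and destruction complex genes or the 10 nuclear factors tested passed in any comparison, beside the same shares of all genes. With so few genes, 0 calls do not show that these lists are alike across the layers. Beta-catenin itself (Ctnnb1) differed by -0.47 ± 0.24 (detrusor against stroma, adjusted p = 0.273), -0.24 ± 0.24 (urothelium against stroma, adjusted p = 0.635) and 0.23 ± 0.24 (urothelium against detrusor, adjusted p = 0.589).

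**Figure D4:**
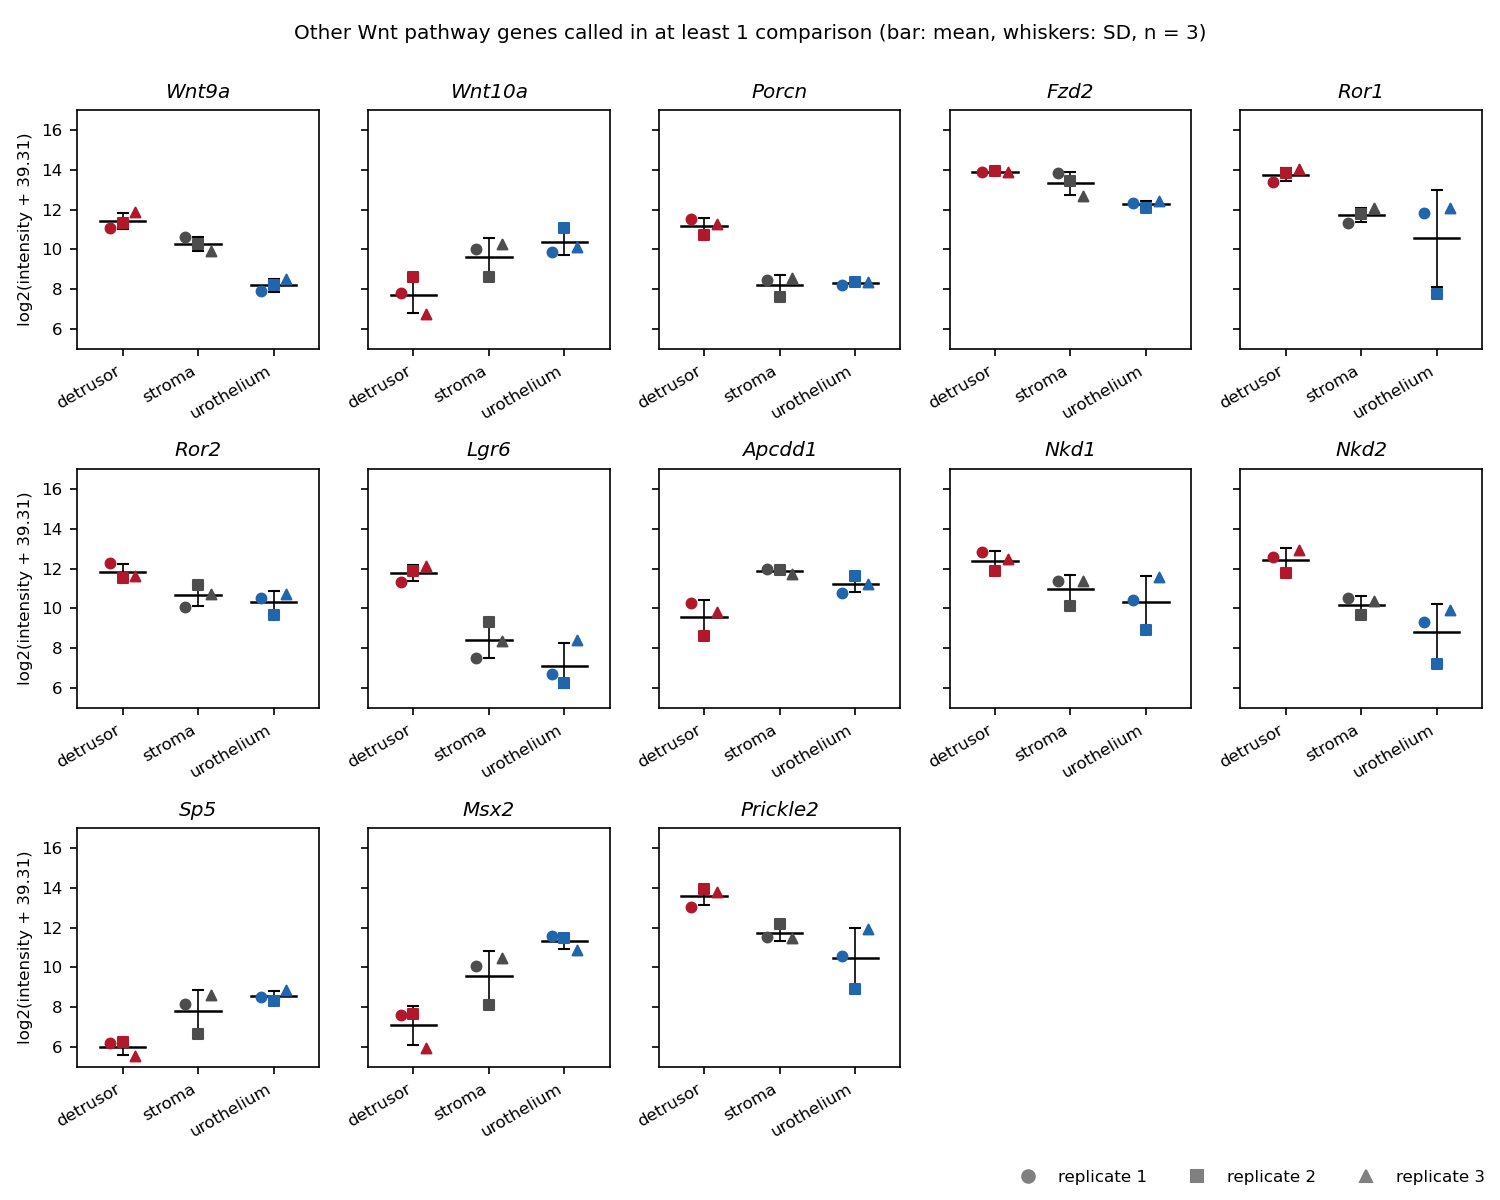
Log2(intensity + 39.31) of the 13 other Wnt pathway genes called in at least 1 comparison, by layer (points are arrays, bars the mean, whiskers the SD of 3 arrays). Wnt9a, Porcn, Fzd2, Ror1, Ror2, Lgr6, Nkd1, Nkd2 and Prickle2 have their highest mean in detrusor, and Wnt10a, Sp5 and Msx2 in urothelium.

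For each gene, the tested genes with the most similar profile over the 9 arrays were taken by the root mean square difference of log2 levels after centring each gene on its mean. Wnt2 was nearest to Krtdap (0.46) and Best1 (0.52), beside its own spread of 1.70. For Wnt4, with a spread of 2.73, they were Slc47a1 (0.73) and Tnfaip2 (0.88). Wnt7b (spread 1.06) was nearest to Ankrd35 (0.24) and Stxbp2 (0.28), and Fzd6 (0.90) to the transcription factor gene Gata2 (0.26) and to Agrn (0.27). The nearest to Lef1 (1.38) were Lepr (0.48) and Pmfbp1 (0.49), and to Wnt5a (1.02) Lrr1 (0.31) and Kif20b (0.35), a kinesin of cell division. Sfrp1 (1.33) was nearest to Foxd1 (0.48) and Nid2 (0.55), and Sfrp2 (1.23) to the endothelial claudin Cldn5 (0.34) and Ushbp1 (0.36). Wnt11 (0.67) was nearest to Klhdc8a (0.26) and Abcb1a (0.29), and Axin2 (0.32) to Cox8c (0.13) and Zfp523 (0.13). The arrays within a layer share their tissue, so these distances describe the 9 arrays only.

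Postnatal day, tested with layer as a covariate, gave no call among the 10 genes by limma, beside 0.0153% of all genes called (0.00765% in each direction). By limma, 0 of the 10 had an unadjusted p under 0.05, beside 727 of the 13064 genes tested. With 1 probe set per gene, the largest day difference was that of Wnt4 (log2 -1.18 ± 0.73, day 2 against day 1, adjusted p = 0.886, 95% interval -2.80 to 0.45), followed by that of Sfrp1 (1.09 ± 0.77, adjusted p = 0.889, interval -0.64 to 2.81). Other probe sets differed, with 0.48 ± 0.66 for Wnt4 (1441687_at), 1.71 ± 0.82 and 1.45 ± 0.78 for Wnt5a (1437673_at and 1448818_at) and 1.47 ± 0.79 for Sfrp1 (1416594_at), with adjusted p from 0.723 to 0.916.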

How the data were processed

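Transcripts of laser-captured detrusor, stroma and urothelium were measured on 9 Affymetrix MOE430 arrays, 3 per layer. Each deposited value is the intensity of a probe set on a linear scale, which the authors made with GCOS, the Affymetrix software, per the submitters' processing notes. Which version, algorithm and target it ran with: not given in the sources used here. RNA was amplified in 2 rounds, per the labels' protocols. A mean trimmed by 2% at both ends was 1500 on every array, and this scaling was kept. The median intensity of an array lay between 133.3 and 388.5. Precision is limited by the number of arrays.

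Of 45101 probe sets, 34945 had 1 symbol in the platform annotation, 932 had several, 9160 were not named there and 64 were controls. A pseudocount of 39.31, the 20th percentile over all arrays, was added before taking log2, and fold changes of dim genes are therefore understated. To be kept, a probe set had to reach the array median on at least 3 arrays (22207 did), and a gene with several was read from the one of highest mean (13064 genes). A single limma fit (3.58.1, R 4.3.3) with a mean-variance trend covered the 9 arrays. Benjamini-Hochberg adjustment ran over all genes, and called means an adjusted p under 0.05. The fit was tested on simulated data. For the comparisons of layers, it recovered 2% to 6% of set changes of 1 log2 unit. It recovered 40% to 50% of changes of 2 units and 72% to 82% of changes of 3. A difference that did not pass can therefore not be read as no difference.

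The 10 genes, the pathway and marker lists and the alternatives were chosen with earlier results of these data known. The naming rule took all 10 genes, every pathway gene called, up to 3 others per list with the highest mean level, and the 2 most similar genes of each of the 10. The alternatives were 2 other normalizations, 2 pseudocounts (8.13 and 232.9), 2 filters, every probe set on its own, day as a covariate, only the layers compared, array weights, no trend, each array left out and stroma 3 and urothelium 3 left out together.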

Additional observations from a re-analysis of the deposited data

How the results depend on the processing

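Of 820 differences of the 10 genes recomputed under 21 alternatives, 752 kept their direction and their side of the threshold, 39 lost a call, 6 gained one and 23 turned sign. None of those that turned sign had been called, and the cause was not tested. Most of the 820 belong to differences that were not called to begin with. The 39 losses fell on 4 calls. For detrusor against stroma, Wnt4 kept its call in 17 of 21 alternatives and Wnt7b in 8 of 21. Wnt2 kept its call in 12 of 21 for urothelium against stroma and in 8 of 21 for urothelium against detrusor. All other calls of the 10 genes were kept in 21 of 21. With median centring, Axin2 was 0.0105 and Sfrp2 0.12 for detrusor against stroma, Axin2 was 0.0678 for urothelium against stroma and Axin2 was -0.0169 for day. For urothelium against detrusor, Wnt11 was -0.0821 with day as a covariate, -0.0924 with array weights and -0.0395 without stroma 3 and urothelium 3 together. Axin2 was -0.0385 with day as a covariate and -0.0237 without that pair, and Sfrp1 was 0.0906 with array weights. With 1 array left out at a time, urothelium against detrusor ranged from -0.23 to 0.40 for Wnt11, from -0.12 to 0.30 for Axin2 and from -1.91 to 0.31 for Sfrp1. For day the ranges were -0.94 to 0.55 (Wnt2), -0.29 to 1.41 (Wnt5a), -0.40 to 0.27 (Wnt7b), -0.77 to 0.017 (Fzd6), -0.88 to 0.0023 (Lef1), -0.11 to 2.29 (Sfrp1) and -0.66 to 1.45 (Sfrp2).

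Leaving out 1 array at a time gave 105 to 851 genes called for detrusor against stroma instead of 763, 0 to 528 for urothelium against stroma instead of 30, 1172 to 2435 for urothelium against detrusor instead of 2145, and 2 to 4 for day instead of 2. Detrusor against stroma gave 369, 190 and 105 without detrusor 1, 2 and 3 and 403 without stroma 3. Urothelium against detrusor gave 1172 without detrusor 3 and 1326 without urothelium 2. Urothelium against stroma gave 0 without detrusor 1, urothelium 2 or stroma 1, 1 without urothelium 1, 2 without detrusor 3, 50 without stroma 2, 102 without urothelium 3 and 528 without stroma 3. By limma, 2481 genes had an unadjusted p under 0.05 there with all arrays. Of the 10 genes, 1 to 4 were then called instead of 3, 0 to 2 instead of 1, and 4 to 6 instead of 5. Without stroma 3 and urothelium 3 together, 428 genes and 1 of the 10 were called for detrusor against stroma, and 440 genes for urothelium against stroma. In the latter comparison the number of genes was 98 with quantile normalization, 223 with median centring, 13 and 303 with the smaller and larger pseudocount, 10 with no filter, 112 with the stricter filter, 10 with day as a covariate, 0 with only those layers, 11 with array weights and 0 with no trend. Wnt2 was not called there, leaving 0 of the 10, with no filter, with day as a covariate, with only those layers and with no trend. Array weights gave 3785 genes for urothelium against detrusor, and the stricter filter 1 gene for day. Median centring shifted all genes together, by a median of 0.41 for detrusor against stroma and 0.42 for urothelium against stroma, and took the share of calls that were higher from 53.5% to 80.4% and from 26.7% to 86.1%. Quantile normalization shifted those medians by 0.13 and 0.11, and the second share to 45.9%. No paired analysis was possible because the labels give the layers no shared replicate numbers. Without detection calls or background values, the limit at low signal is unknown.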

Other observations

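Urothelium 2, the 1 urothelium array of day 1, was low for several pathway genes beyond Sfrp1 and Sfrp2, which were picked here after their values were seen. Ror1 stood at 7.75 on that array against 11.85 and 12.07 in urothelium 1 and 3, and Ccnd1, the cyclin D1 gene, at 10.91 against 14.28 and 13.55. Nkd2 stood at 7.21 against 9.30 and 9.92, and Prickle2 at 8.90 against 10.57 and 11.91. Wnt4, at 12.96, and Fzd6, at 14.48, were instead the highest of the 3 urothelium arrays there. The same array had the lowest median intensity of the 9 (133.3, against 191.7 to 388.5), the lowest sums of the 9 arrays for smooth muscle markers (38983), endothelial markers (2455) and fibroblast markers (135557), and the highest for urothelial markers (412199). The part of these in the low values was not tested.

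Whether layer differences changed with day was tested with a layer by day term in limma, an alternative chosen after seeing the data, with 3 residual degrees of freedom. In each layer 1 of the 2 days rests on a single array (detrusor 3, stroma 1 and urothelium 2), so the term cannot tell a change with day from an array that stands apart. For that reason no count or p-value of the term is read here. The day 1 value of Sfrp2 in urothelium, for example, is that of urothelium 2 alone, at 11.34, against 14.97 and 14.74 in urothelium 1 and 3.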
